A study of Sus scrofa with 85 samples.

Results

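The non-infarcted region of the left ventricle was compared between day 2 after a coronary occlusion and baseline in micro-endomyocardial biopsies (micro-EMB) of swine. Members were the libraries labelled lateral Day 2 and the baseline libraries, labelled apical and shared by both regions, that held at least 1000000 counts and gave between 7% and 60% of their counts to their 10 most counted genes. This left 8 of the 85 libraries of the series, 4 of 6 at each time point. RNA was sequenced from each micro-EMB and counted per gene.

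All animals were female mixed-breed Yorkshire-Swedish farm pigs. Baseline micro-EMB were taken from the intact heart, before a balloon was inflated in the distal left anterior descending artery (LAD) and later deflated to let blood return. Day 2 micro-EMB were aimed 2 days later, under fluoroscopy, at the more basal and lateral wall, which the study treats as non-infarcted. The study names imprecise targeting of the regions among its limits. It proposes that some lateral samples of the series came from or near the ischemic area. Every animal went through repeated catheter biopsies under sedation and anesthesia, received amiodarone around the occlusion and daily buprenorphine and meloxicam after it, and no animals without occlusion served as controls. The baseline libraries came from swine 1644 (1 library), 5385 (2) and 1640 (1), and the day 2 libraries from swine 1644 (1), 5385 (1) and 1640 (2). Biopsies of 1 animal are not independent animals, so p-values over libraries measure the spread between biopsies. The baseline libraries carry the label apical, although by the study's own account baseline biopsies were aimed at no region. Every day 2 library carries the label lateral. A difference between the sites sampled and a difference between the days therefore cannot be told apart.

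Heart muscle outside an infarct still beats against an altered load and receives the hormones and cytokines released after injury, so it is often studied as the remote myocardium. The heart also has its own molecular clock. In it BMAL1 and CLOCK switch on the period, cryptochrome and REV-ERB genes, whose products in turn hold BMAL1 and CLOCK back. BMAL1 and CLOCK also switch on output factors such as DBP. The levels of these genes therefore swing over the day, and glucocorticoids and feeding reset them. The hour of day of each biopsy is not given in the sources used here.

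One baseline library stood apart from the other 7. Levels are given as log2 CPM, counts scaled to the library total as adjusted by TMM normalization. The scale is log2 with 2 counts added, on which a gene without a count stands at -2.21. The library of swine 1644 had a mean of 2.09 over 6 cardiomyocyte markers, while the other baseline libraries stood between 10.8 and 11.9 and the day 2 libraries between 10.8 and 11.8. Its 6 adipocyte markers had a mean of 8.43, against 1.62 to 2.51 in the other baseline libraries and 1.50 to 2.96 at day 2. ADIPOQ, the fat cell hormone adiponectin, had 22619 counts there and 14 or fewer in each of the other 7. MYH6, a heavy chain of cardiac myosin, stood at 4.38 in this library and between 14.5 and 15.9 elsewhere, so the defining markers of the labelled tissue were nearly absent. It was the only baseline library of swine 1644 in the comparison. Counts of genes, list medians and most differences are therefore also given without it. Total counts ran from 5990513 to 16659110 at baseline and from 7160165 to 10267684 at day 2.

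**Figure D1:**
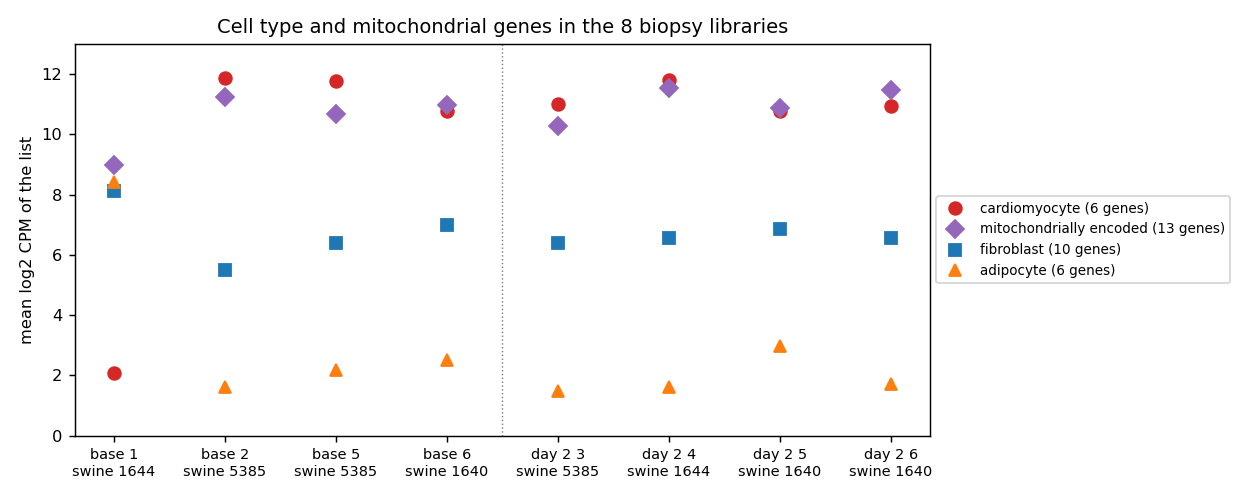
Mean log2 CPM (vertical axis) of cardiomyocyte, mitochondrially encoded, fibroblast and adipocyte genes in each of the 8 libraries (horizontal axis, time point, replicate number and swine), 1 point per list and library. The first baseline library, of swine 1644, had a cardiomyocyte mean of 2.09 and an adipocyte mean of 8.43, outside the range of the other 7.

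No gene passed the threshold of edgeR between baseline and day 2. Of 18185 genes tested, 0 (0%) had an adjusted p of 0.05 or less, and the smallest was 0.9997 (quasi-likelihood test of edgeR, adjusted over all genes after Benjamini and Hochberg). At an unadjusted p under 0.05 there were 373 genes (2.05% of those tested), of which 110 (0.605%) were higher and 263 (1.45%) lower at day 2. DESeq2 and limma-voom on the same 20 libraries of all time points called 0 genes too, with 540 and 325 genes under an unadjusted 0.05. The smallest adjusted p of DESeq2's Wald test there was 0.0712, nearer the threshold than that of edgeR. The median standard error of a log2 difference was 0.52, so many moderate differences were not detectable with these libraries. Without the baseline library of swine 1644 edgeR again called 0 genes (0%), and 0.949% of those tested were under an unadjusted 0.05, 94 higher (0.519%) and 78 lower (0.431%). Of the genes under 0.05, 95 were shared by both fits, 269 were under it only with that library and 77 only without it.

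The count of called genes depended on the tool and on which libraries entered the fit. When DESeq2 was given the 8 libraries alone, a choice made after the data had been seen, it called 7 genes, SGMS1, SPAG11 and BMAL1 higher and LFNG, PER2, AMOTL1 and ID3 lower at day 2. On the 7 libraries without that of swine 1644 it called 11 genes, of which SGMS1, BMAL1, LFNG and AMOTL1 were the 4 called in both. The others were ASXL3, FOXP2, GIMAP4 and PRR16 higher and ID1, NR4A3 and DCHS1 lower, with ID1 at the smallest adjusted p, 3.58e-07 (DESeq2's Wald test with Benjamini-Hochberg adjustment). The edgeR test called 0 of the genes in either set of libraries, with 550 and 552 under an unadjusted 0.05 and ID1 at its smallest adjusted p of 0.384 in the 7. With the swine as a block, also chosen after the data had been seen, DESeq2 called 1 gene in the 8 libraries, CD209, and none of the former 7. In the 7 libraries with the block, where the day 2 library of swine 1644 has no baseline partner, it called 33 genes, 16 higher and 17 lower. These held 7 of the 11 called without the block, BMAL1, FOXP2, GIMAP4, PRR16 and SGMS1 higher and ID1 and NR4A3 lower. Among the others were TNC (2.02), a matrix protein of injured tissue, and the cardiac muscle genes ACTC1 (-1.11) and CKM (-0.79). In the 20 libraries with the block DESeq2 called 8 genes against 0 without it, and these included the fat cell genes PLIN1 and ADIPOQ, both lower. The edgeR test called 0 genes with the block in the 20 and in the 8 libraries. SGMS1, a sphingomyelin synthase, stood at 8.14, 8.11, 8.25 and 8.03 log2 CPM at baseline and at 8.90, 8.76, 8.56 and 8.69 at day 2. LFNG, which modifies the Notch receptor, stood at 4.76, 5.18, 4.95 and 4.70 and at 4.12, 3.77, 3.83 and 3.52. Libraries are listed here and hereafter in the order swine 1644, 5385, 5385 and 1640 at baseline and 5385, 1644, 1640 and 1640 at day 2, and for neither gene did the time points overlap.

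Since edgeR called no gene and the calls of DESeq2 changed with the libraries and the block, genes are described by whether the libraries of the time points stood apart without overlap. This held for 453 genes (2.49%), with all 4 day 2 libraries above all 4 baseline libraries for 244 (1.34%) and below them for the rest (1.15%). Without the library of swine 1644, 550 genes (3.02%) lay wholly above and 364 (2%) wholly below. The 10 named genes in each direction had the smallest p among those, so their p-values describe how they were chosen. Of these 20 genes, 16 kept an unadjusted p under 0.05 without the library of swine 1644. Separation of so few libraries also arises by chance, so the counts of genes without overlap are no evidence of a difference. In edgeR, 2.05% of all genes lay under an unadjusted 0.05, and 0.949% without that library. Both shares were smaller than the threshold lets through by chance.

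Genes of the circadian clock stood on both sides. BMAL1 was higher at day 2, and PER1, PER2, DBP and BHLHE41 were lower, each without overlap between the time points. BMAL1 (ENSSSCG00000013397, chromosome 2, 45895637 to 46025174 in Sscrofa11.1), the activator of the loop, stood at 5.17, 5.10, 4.81 and 5.03 log2 CPM at baseline and at 5.60, 5.84, 6.47 and 6.26 at day 2. The log2 difference was 1.05 (SE 0.34, 95% interval 0.34 to 1.76), with an unadjusted p of 0.00583, and 1.09 without the library of swine 1644. By animal, the difference of the means was 0.67 in swine 1644, 0.65 in swine 5385 and 1.33 in swine 1640, so swine 1640 had the largest. The value of swine 1644 sets a day 2 library against a baseline library low in cardiomyocyte markers and rich in adipocyte ones.

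DBP (ENSSSCG00000003148, chromosome 6, 53986955 to 53993044), a factor that binds the D-box of output genes, stood at 4.53, 4.03, 3.28 and 3.57 at baseline and at 2.76, 2.81, 2.39 and 1.70 at day 2. It was 1.49 lower on the log2 scale (difference -1.49, SE 0.45, interval -2.43 to -0.55), and -1.21 without the library of swine 1644. The highest day 2 library thus lay below the lowest baseline library, by about the spread within either group. PER2 (ENSSSCG00000016338, chromosome 15, 137793419 to 137837854), a repressor of BMAL1 and CLOCK, stood at 6.18, 5.51, 5.44 and 6.14 at baseline and at 4.88, 4.29, 4.84 and 4.28 at day 2. Its difference was -1.27 (SE 0.47, interval -2.24 to -0.29), and -1.13 without that library. The same order held for its relative PER1 (ENSSSCG00000017983, chromosome 12, 53361863 to 53376723), at 6.30, 6.95, 5.95 and 5.94 at baseline and at 5.41, 5.86, 5.28 and 5.37 at day 2. The difference of PER1 was -0.85 (SE 0.37) with and -0.87 without the library. BHLHE41, also called DEC2 and another repressor of the loop (chromosome 5, 47687662 to 47692761), stood at 4.25, 2.84, 2.66 and 2.77 at baseline and at 1.31, 2.14, 1.95 and 1.77 at day 2. Here the library of swine 1644 was the highest by far, and the difference went from -1.53 with it to -0.99 without it.

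The promoters of DBP and PER1 are shown because both genes were lower together and their windows held a clock element, printed in capitals. The windows are the 250 bases before each RefSeq start in Sscrofa11.1, written 5′ to 3′ on the gene's strand, and were searched on both strands for the E-box CACGTG bound by BMAL1 and CLOCK, the D-box TTANGTAA and the ROR element TAGGTCA. DBP lies on the minus strand of chr6:53993045-53993294 and held the ROR element, 42 bases before its start, which 2.58% of 19556 such windows held. PER1 lies on the minus strand of chr12:53376724-53376973 and held the E-box, 93 bases before its start, as did 6.39% of windows, while the D-box stood in 1.7%. The ROR element also stood in the window of CRY2, 19 bases before its start, although CRY2 did not separate between the time points. None of these letters stood in the windows of BMAL1, PER2 and BHLHE41, and a match in the sequence is no measured binding.
DBP: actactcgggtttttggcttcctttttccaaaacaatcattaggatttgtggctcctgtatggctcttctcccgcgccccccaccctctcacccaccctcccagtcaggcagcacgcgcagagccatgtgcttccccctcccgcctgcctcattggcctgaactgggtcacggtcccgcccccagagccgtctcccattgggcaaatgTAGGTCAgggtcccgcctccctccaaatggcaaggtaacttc
PER1: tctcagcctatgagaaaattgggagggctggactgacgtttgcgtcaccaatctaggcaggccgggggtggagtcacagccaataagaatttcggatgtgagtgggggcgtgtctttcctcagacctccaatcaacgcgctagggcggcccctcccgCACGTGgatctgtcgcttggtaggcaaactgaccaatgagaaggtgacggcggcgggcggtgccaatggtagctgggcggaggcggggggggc

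The other clock genes did not separate in this way. NR1D1, which encodes REV-ERB alpha, stood at 4.11, 2.93, 3.66 and 3.81 at baseline and at 2.04, 3.30, 3.44 and 2.51 at day 2, with a difference of -0.78 (interval -1.69 to 0.14), and -0.61 without the library of swine 1644. Its time points overlapped, although the mean was lower in all 3 swine. For swine 1644 that mean rests on its baseline library low in cardiomyocyte markers. The differences of CLOCK (0.19), CRY1 (0.10) and HLF (0.00) had intervals that spanned 0. The list of glucocorticoid and clock genes had 25 members, of which 21 were tested and 0 called by edgeR. DESeq2 called BMAL1 and PER2 of this list in the 8 libraries, and BMAL1 in the 7 with and without the block. At an unadjusted 0.05, 1 was higher and 4 were lower, both with and without the library of swine 1644, and 2 lay wholly above and 4 wholly below baseline, against 1.34% and 1.15% of all genes. The list was chosen with earlier results of these data known, so these counts are no independent evidence. The median difference of the list was -0.27, and -0.21 without that library, beside -0.02 and 0.03 over all genes. FKBP5 (-0.27), KLF9 (-0.14) and SGK1 (0.03), which glucocorticoid receptor activates, gave values near 0 with intervals that spanned it.

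ZBTB16, a zinc finger factor that glucocorticoids induce, was the most abundant gene of this list and the second member without overlap on the higher side. It stood at 6.73, 7.17, 7.15 and 6.76 at baseline and at 7.33, 7.95, 7.82 and 7.54 at day 2, a difference of 0.71 (SE 0.52, interval -0.37 to 1.80), and 0.63 without the library of swine 1644. The gap between its time points was small beside the spread that the fit assigned to it over all 20 libraries. ZBTB16 differed from baseline by 1.55 at 1-3 h and by 1.05 at day 14, both more than at day 2. In the infarcted region at day 2, in its own fit, the difference of ZBTB16 was -0.35. The study chose it on libraries of this series, so its direction is no independent evidence.

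**Figure D2:**
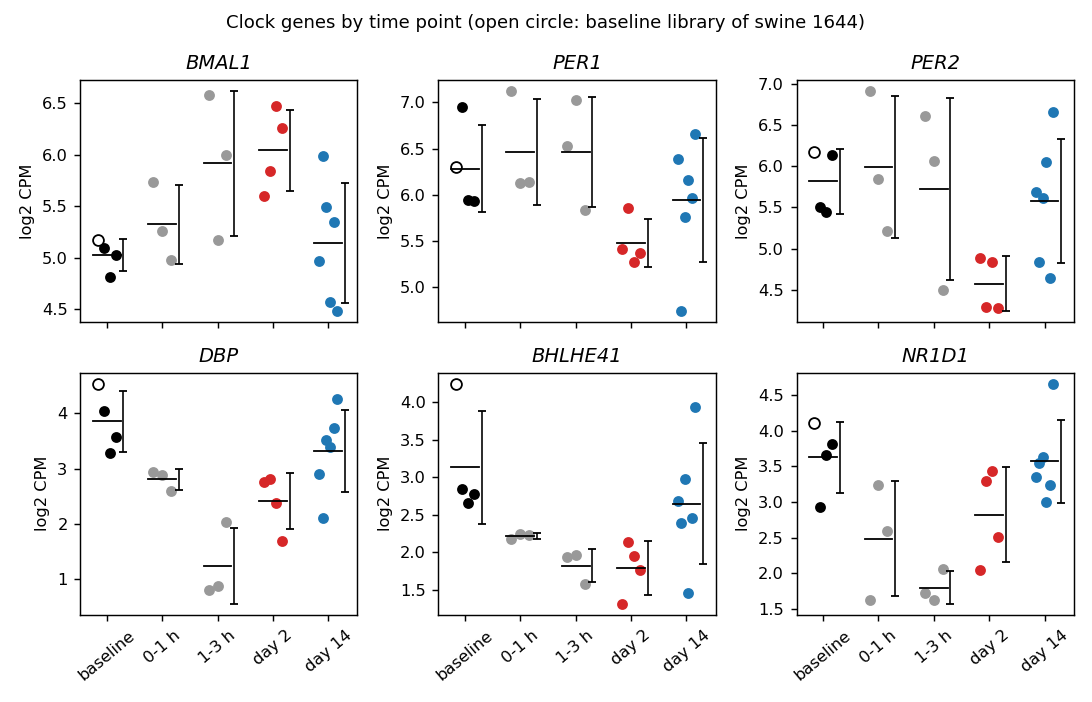
Log2 CPM (vertical axes) of 6 clock genes at baseline, 0-1 h, 1-3 h, day 2 and day 14 of the non-infarcted region, 1 point per library, with the mean (line) and SD (bar). BMAL1 was highest on average at day 2, with a mean of 6.04 against 5.03 at baseline, and DBP was already below baseline at 0-1 h.

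The other time points give these genes a context. They belong to the same fit, and each later time point shares the 4 baseline libraries, so their levels are set side by side. One of the 3 libraries of 1-3 h, from swine 1644, was also low in cardiomyocyte markers. Its mean was 6.25, against a median of 11.2 at 1-3 h. BMAL1 ranged from 4.98 to 5.73 in the 3 libraries of 0-1 h, from 5.17 to 6.57 in the 3 of 1-3 h and from 4.48 to 5.99 in the 6 of day 14, where its median was 5.16. DBP ranged from 2.60 to 2.95 at 0-1 h and from 0.81 to 2.03 at 1-3 h, and had a median of 3.46 at day 14. DBP was thus lower at 1-3 h than in any library of baseline, and its day 14 range, 2.11 to 4.25, spanned most of the baseline range. PER2 went another way, with 5.21 to 6.92 at 0-1 h, a range that overlapped baseline and lay above day 2.

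Between day 2 and day 14, 0 of 18185 genes (0%) were called in edgeR (quasi-likelihood test, smallest adjusted p 0.620), and 1107 genes (6.09%) had an unadjusted p under 0.05. Of these, 951 (5.23%) were higher and the rest (0.858%) lower at day 14. The 1107 genes became 345 without the second day 14 library of swine 1644 and 431 without the first of swine 1640. These libraries held 22076 and 20949 genes at 1 CPM or more, against 13975 to 15889 in the other day 14 libraries. Leaving out a single day 2 library gave 334 to 2883 genes. DESeq2 called 4 genes, KIAA1755, ENSSSCG00000041619 and COMP higher and PTPRA lower at day 14, with 2897 genes under an unadjusted 0.05, and limma-voom called 0, with 1193. With the swine as a block DESeq2 called 11 genes, which held the same 4. The day 14 minus day 2 difference was -0.84 for BMAL1, 1.15 for PER2, 1.01 for DBP and 1.07 for BHLHE41, each at an unadjusted p under 0.05 in edgeR. PER1, which had also separated between baseline and day 2, was not under 0.05 here. This difference and that between day 2 and baseline share the day 2 libraries, so their signs are not independent. In the infarcted region at day 2, normalized in its own fit with the same baseline, the 4 libraries of BMAL1 stood between 5.73 and 6.58 and those of DBP between -0.24 and 3.12. PER1 stood there between 4.39 and 5.57 and PER2 between 3.93 and 5.06, all below the lowest baseline level given above.

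Other genes that were higher at day 2 without overlap belonged to no common list. CLEC5A, a receptor of myeloid cells, had 4 counts over the 4 baseline libraries, all in the one of swine 1640, and 2, 2, 11 and 30 counts at day 2. STAP2, a signalling adaptor, had no count at baseline and 2, 3, 12 and 7 at day 2, at least 9.55-fold higher in CPM over the group when 3 counts are set as the floor at baseline. Both rest on few reads, and counting error alone is large at such levels. IKZF2, a zinc finger factor known from lymphocytes, stood at 5.35, 5.04, 5.94 and 5.90 at baseline and at 5.99, 7.52, 6.76 and 7.09 at day 2 (difference 1.34, SE 0.40, and 1.26 without the library of swine 1644). Its margin was narrow, since the lowest day 2 library lay only just above the highest baseline library. SKA2, which joins chromosomes to the spindle, was 0.85 higher (SE 0.25) and kept an unadjusted p of 0.00305 without that library. ASXL3, a chromatin regulator, was at 2.36 in the library of swine 1644, between 4.92 and 5.18 in the other baseline libraries and between 5.76 and 6.18 at day 2. Its difference was 1.28 with and 0.93 without that library, so the low level there added to its size. COLEC10 (1.50, and 1.20 without that library), a collectin of innate immunity, CYP46A1 (2.09 and 1.81), a cholesterol hydroxylase, AMMECR1 (0.64 and 0.57) and TBC1D31 (0.69 and 0.71) complete the group.

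Among the genes lower at day 2, ID1 had a larger difference without the library of swine 1644. ID1 (chromosome 17, 35316518 to 35317742), an inhibitor of helix-loop-helix factors and a target of bone morphogenetic protein signalling, stood at 4.62, 5.84, 5.54 and 5.42 at baseline and at 4.16, 4.12, 4.26 and 4.37 at day 2. Its difference was -1.20 (SE 0.37, interval -1.97 to -0.42) and -1.40 without that library, whose own level was the lowest of baseline. The 4 day 2 libraries lay close together, and within day 14 the median of 4.22 was near theirs. Its relative ID3, singled out after its values were seen, stood between 4.96 and 5.29 at baseline and between 4.09 and 4.39 at day 2 (difference -0.80, and -0.83 without that library). AMOTL1, a partner of the Hippo pathway factor YAP, was at 7.65, 7.23, 7.21 and 7.01 at baseline and at 6.54, 6.58, 6.64 and 6.50 at day 2. Its difference of -0.73 (SE 0.22) became -0.60 without that library, and the day 2 libraries again lay close together. KLF11, a Krüppel-like repressor, differed by -1.17 and by -0.86 without that library, and SLC16A5, a monocarboxylate transporter, by -1.13 and -0.89.

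For the remaining lower genes much of the size came from the library of swine 1644. GPX3, the secreted glutathione peroxidase, had the smallest p of the 20 genes. It stood at 7.63 in that library, between 4.96 and 5.17 in the other baseline libraries and between 3.03 and 4.67 at day 2. The difference of -2.22 (SE 0.56) became -1.07 without it (interval -1.93 to -0.21). CD248, a surface protein of pericytes and fibroblasts, was at 6.73 there, between 3.49 and 3.99 in the other baseline libraries and between 1.90 and 3.46 at day 2, and its difference went from -2.31 to -0.85. DBN1, an actin-binding protein, went from -1.50 to -0.94, and PCCB, a subunit of propionyl-CoA carboxylase, from -0.83 to -0.47. Without the library CD248 and PCCB were no longer under an unadjusted 0.05.

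**Figure D3:**
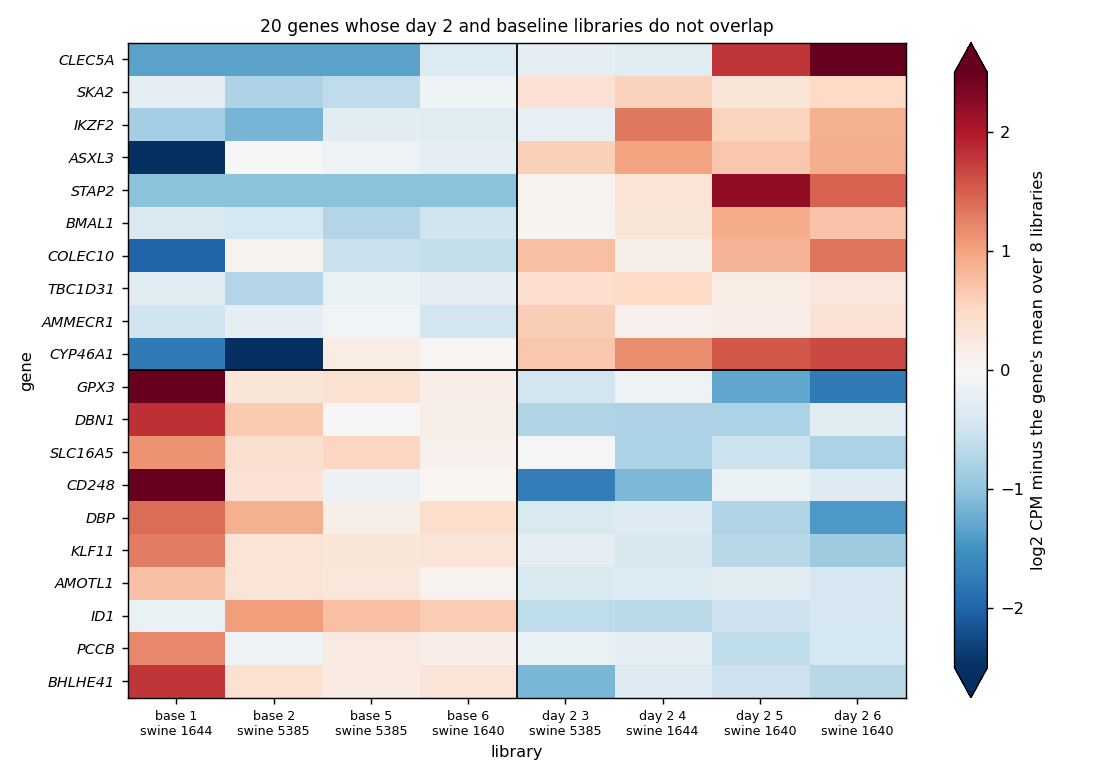
Log2 CPM of the 20 named genes without overlap, minus each gene's mean over the 8 libraries (colour, red above and blue below the mean), by library (columns) and gene (rows, 10 higher and 10 lower at day 2, each ordered by p). The first column, the baseline library of swine 1644, is at the dark end of the colour scale for GPX3 and CD248, at 7.63 and 6.73 log2 CPM (red), and for ASXL3, at 2.36 (blue).

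Lists of other pathways and of cell types were compared by their counts and medians, and edgeR called no member of the 36 lists. DESeq2 called the clock genes named above in the 8 and 7 libraries, the immediate early gene NR4A3 in the 7, members of further lists such as ACTC1, CKM, TNC, GAPDH and AGT only in the 7 with the block, and PLIN1 and ADIPOQ only in the 20 with it. The 2 lists with the lowest medians and at least 10 genes followed the library of swine 1644. Of the 24 extracellular matrix genes, 23 were tested, 4 higher and 19 lower at day 2, with a median of -0.81. Without that library 12 were higher and 11 lower, with a median of 0.03. COL1A1, the main collagen of scars, stood at 13.8, 10.3, 10.2 and 12 at baseline and at 10.4, 10.5, 11.9 and 11.4 at day 2, and its difference turned from -1.18 to 0.12. MMP2, a gelatinase, was the only member without overlap, 8.74, 7.31, 7.27 and 7.0 at baseline against 6.67, 6.34, 6.91 and 6.39 at day 2, and its difference was -1.17 with and -0.61 without that library. All 10 fibroblast markers were lower with the library, with a median of -0.93, and 7 of 10 were higher without it, with a median of 0.07. MFAP5, a microfibril protein, had the smallest p among them, at -1.23 with and -0.49 without the library. In bulk RNA, fewer cells of a type and less RNA per cell cannot be told apart. The 6 adipocyte markers had a median of -3.33 that became -0.01, with CIDEC, a lipid droplet protein, going from -3.81 to -0.04 and LPL, the lipoprotein lipase, from -1.20 to 0.02.

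No gene of the contractile apparatus was called by edgeR. Of 24 genes of the contractile apparatus, 19 were matched to an Ensembl gene and 18 were tested. With all libraries 14 were higher and 4 lower, with a median of 0.23. Without the library of swine 1644, 4 were higher and 14 lower, with a median of -0.18. None had an unadjusted p under 0.05 in either fit, and the direction of the list therefore flipped with 1 library. DES, desmin, was at 0.62 (interval -1.59 to 2.84) and at 0.19 without it (interval -1.60 to 1.97). RYR2, the calcium release channel, was the most abundant of the 6 cardiomyocyte markers tested, at 0.58 and 0.15. The markers MYH7 and TTN were not matched to an Ensembl gene and could not be ranked. The 13 mitochondrially encoded genes had a median of 0.32, 11 of them higher, and a median of 0.01 with 7 higher without that library. COX1, a subunit of cytochrome c oxidase, was at 0.49 and 0.14. The 20 nuclear genes of the respiratory chain went from a median of 0.10 to -0.13, the 21 genes of fatty acid oxidation from -0.01 to -0.12 and the 18 of glucose use from -0.11 to -0.29. UCP3, a mitochondrial carrier, differed by -4.70 with the library and 1.64 without it, and rested on its level of 6.77 there against -2.21 to 0.92 in the other 7.

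**Figure D4:**
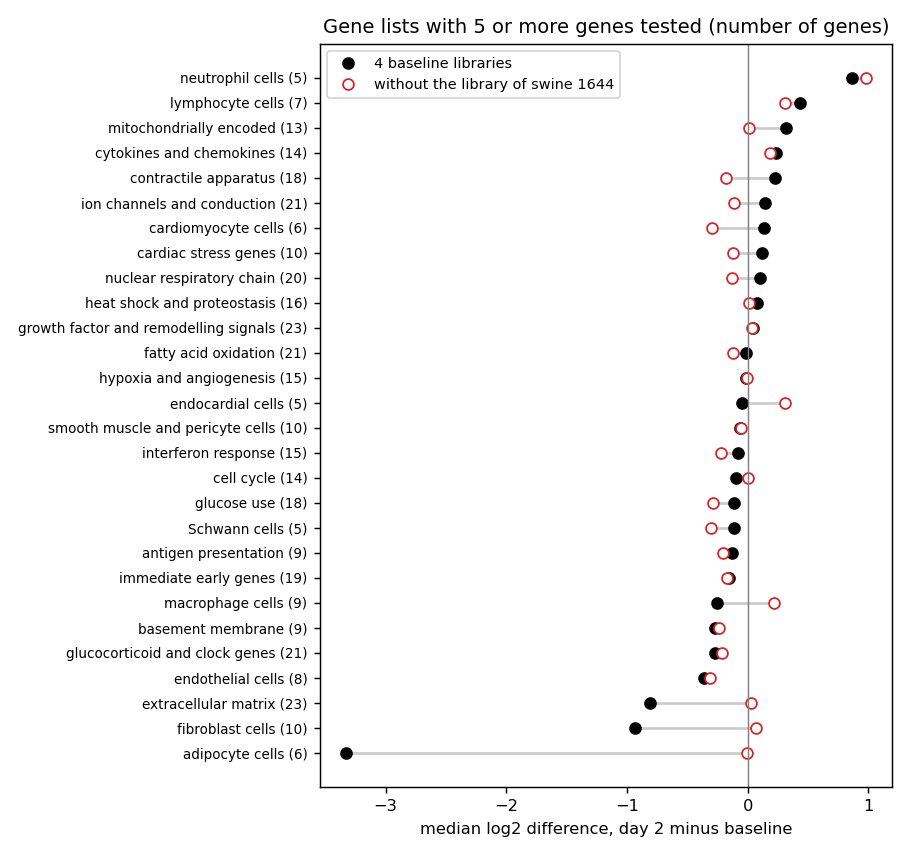
Median log2 difference, day 2 minus baseline (horizontal axis), of 28 gene lists with at least 5 genes tested (vertical axis, number of genes in parentheses), with all 4 baseline libraries (filled) and without that of swine 1644 (open), joined by a grey line. The extracellular matrix went from -0.81 to 0.03 and adipocyte markers from -3.33 to -0.01, while glucocorticoid and clock genes stayed at -0.27 and -0.21.

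Genes of inflammation had wide intervals. Neutrophil markers had 5 of 10 members tested, with a median of 0.86 and 0.98 without the library of swine 1644, the highest medians of lists with at least 5 genes in both. CSF3R, the G-CSF receptor, stood at 1.13, -0.17, 0.31 and 1.53 at baseline and at 0.43, 1.56, 1.89 and 3.51 at day 2, a difference of 1.49 (interval -0.22 to 3.20) that was 0.58 without the second day 2 library of swine 1640. The time points overlapped, and all 5 had few counts. Among 7 lymphocyte markers CD5, a T cell receptor partner, was the only one without overlap, at -0.87, -2.21, 0.09 and 0.17 against 0.79, 1.38, 1.49 and 1.50. Its unadjusted p in edgeR went from 0.0414 to 0.0891 without the baseline library of swine 1644. The 9 macrophage markers had a median of -0.25 that became 0.21, and the 14 cytokines and chemokines one of 0.23 that became 0.18. Of 15 interferon response genes 11 were lower, with medians of -0.08 and -0.23. ISG15 was at 1.88, 4.20, 5.54 and 2.58 at baseline and at 1.85, 1.56, 2.51 and 3.85 at day 2 (-1.51, and -1.88 without the baseline library of swine 1644). Its difference was -0.48 without the second baseline library of swine 5385, the highest.

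Further immune genes were singled out after their values were seen. SPP1, osteopontin, stood at 1.67, -1.18, 0.09 and 0.03 at baseline and at 2.98, 0.31, 1.77 and 6.23 at day 2, a difference of 4.07 (SE 1.41) that became 5.03 without the library of swine 1644. The second library of swine 1640 held 516 of its 607 counts at day 2, so 1 biopsy carried most of the difference, which was 1.63 without that library. GP91-PHOX, the oxidase subunit of phagocytes also called CYBB, ranged from 1.64 to 3.06 at baseline and from 2.74 to 4.27 at day 2 (difference 1.30, SE 0.48, and 1.63 without the library of swine 1644). TLR9, a sensor of DNA, ranged from -1.18 to -0.31 and from 0.66 to 2.19 (difference 2.65, SE 1.02, and 2.61 without that library), without overlap but at few counts. GIMAP4, a GTPase of lymphocytes, ranged from 2.79 to 4.63 at baseline and from 4.23 to 5.57 at day 2, and lay above baseline in every day 2 library once that of swine 1644, its highest at baseline, was left out.

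Immediate early genes, which respond within minutes to stress, had 19 of 22 members tested, 5 higher and 14 lower, with a median of -0.15 and -0.17 without the library of swine 1644. NR4A3, an orphan nuclear receptor, stood at 2.06, 6.64, 6.44 and 5.08 at baseline and at 3.62, 3.68, 3.87 and 4.54 at day 2. With the library of swine 1644 the time points overlapped (difference -1.84), and without it all 3 baseline libraries lay above day 2 (difference -2.25, interval -4.09 to -0.41). One day 2 library, the second of swine 1640, ran higher than the other 3 in this list, with FOS at 5.0 against 1.07 to 1.49 and a list mean of 3.63 against 2.40 to 2.55.

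Some lists held a single gene that led the description. NPR1, the receptor of natriuretic peptides, was among 2 of 23 growth factor and remodelling genes lower at an unadjusted 0.05 in edgeR. The share over all genes was 1.45%. NPR1 differed by -1.61, and by -0.86 without the library of swine 1644, where 0 of the 23 were lower under 0.05. NPPB, which encodes B-type natriuretic peptide and was singled out later, stood at -1.11, 0.42, 1.55 and 8.79 at baseline and at 2.83, 6.08, 4.78 and 3.77 at day 2. The baseline library of swine 1640 held 8278 of the 8302 baseline counts, and 3 of 4 baseline libraries lay below every day 2 library. Its difference was -1.96 with that library and 4.43 without it. MYL4, the atrial myosin light chain, also rested on that library of swine 1640, at 7.41 against -2.21 to -0.16 in the other baseline libraries (difference -4.50, and 3.07 without that library). The mean of 3 atrial markers was 2.70 in that library and between -1.67 and 0.82 in the other 7. GP9, of platelets, differed by -1.27, by -1.61 without the library of swine 1644 and by -0.16 without the first baseline library of swine 5385. Of 8 endothelial markers 7 were lower with a median of -0.36, and 5 with a median of -0.32 without the library of swine 1644. RAMP2, a subunit of the adrenomedullin receptor, was the only one without overlap, at 5.0, 5.75, 5.07 and 4.77 against 4.74, 4.58, 4.70 and 4.43 (difference -0.58, interval -1.31 to 0.16, and -0.33 without the first baseline library of swine 5385). COL4A1, the most abundant basement membrane gene, was at -0.65 (interval -1.51 to 0.21), and -0.67 without the library of swine 1644. It was lower in all 3 swine, where swine 1644 had only its baseline library low in cardiomyocyte markers.

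The genes that the study followed over time in the infarcted region were looked up in the non-infarcted region. They were chosen on libraries of this series that include baseline samples, of which the study kept fewer than are used here. FN1, fibronectin, stood at 10.4, 6.43, 6.96 and 7.68 at baseline and at 7.21, 7.54, 7.85 and 9.01 at day 2, with a difference of -0.73 (interval -2.57 to 1.12) that turned to 0.98 (interval -0.68 to 2.63) without the library of swine 1644. TNC, tenascin C, was at 4.43, 2.70, 2.97 and 3.67 and at 4.07, 3.46, 5.77 and 6.84, with a difference of 2.02 (interval -0.29 to 4.34) and 2.47 without it. The 2 highest day 2 levels of TNC were those of swine 1640, and without its second library the difference was 1.17. CILP, a cartilage matrix protein known from fibrotic hearts, was at 0.53 (interval -1.13 to 2.20), and 0.44 without the library of swine 1644. In the infarcted region at day 2 FN1 stood between 9.64 and 10.3, TNC between 7.20 and 9.11 and CILP between 2.73 and 8.61, so the 4 libraries of the non-infarcted region all lay below those of the infarcted region for FN1 and TNC, and the regions overlapped for CILP. Over the study's 6 genes of day 2 in the infarcted region the median difference was 0.07, with 4 of 6 higher, and 0.46 with 6 of 6 higher without the library of swine 1644. FAM111A (-0.22 and 0.32) and ENSSSCG00000014997 (0.02 and 0.47) belong to that list.

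MYC, ARC and PDK4, which the study followed for the first hours, gave -0.13 (interval -2.04 to 1.78), -0.25 (interval -4.23 to 3.74) and -1.38 (interval -3.24 to 0.47). Without the library of swine 1644 the sign of MYC and ARC turned, to 0.44 (interval -1.63 to 2.51) and 1.52 (interval -3.67 to 6.72). PDK4, a kinase that turns off glucose oxidation, stood at 7.25 in the baseline library of swine 1644 and between 4.51 and 5.55 in the others, and its difference was -0.40 without it. The 28 genes of 0-1 h had a median of -0.04, with 13 higher, and of 0.32 with 21 higher without that library, beside 48% and 52.9% of all genes with a higher mean. The 33 genes that the study lists for any time point in the non-infarcted region had medians of -0.15 and -0.18, with 0 members called by edgeR and 3 under an unadjusted 0.05, all lower, where 2.05% of all genes lay under it. Without that library 1 was higher and 1 lower under 0.05. The study chose these genes on libraries of the non-infarcted region and of baseline, so their share is no independent evidence. After its exclusions for quality, blood and fibrous content, it kept fewer baseline samples than the 4 used here.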

How the data were processed

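Total RNA of single micro-EMB was made into libraries with a stranded total RNA kit. The deposited values are raw read counts per gene, which the authors obtained from STAR alignments to Sscrofa11.1 by means of featureCounts. The setting for strand is marked as none in the column names, so genes that overlap on opposite strands cannot be told apart. Counts of 31907 Ensembl genes were used, of which 15029 were paired with a symbol by a RefSeq-based table.

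A fit over the 20 kept libraries of the non-infarcted region and baseline (4 baseline, 3 of 0-1 h, 3 of 1-3 h, 4 of day 2 and 6 of day 14) used time point as its only term, as the study's methods do. Genes that reached 1 CPM in 20% of the libraries or more were tested with the quasi-likelihood test of edgeR 4.0.16 in R 4.3.3 after TMM normalization, and called at an adjusted p of 0.05 or less. DESeq2 1.42.0, limma 3.58.1 (voom) and other settings were alternatives, and the scripts were tested on simulated data. Intervals are 95% intervals of the fit.

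Gene lists were written by hand as 18 pathway and 13 marker lists of 473 symbols, beside 5 lists of the study. Of these symbols, 411 were matched to an Ensembl gene and 366 were tested. Absence of an unmatched member from the lists therefore says nothing about its level. Named genes were the 10 in each direction with the smallest p among genes with a symbol and no overlap between time points, the most abundant member of a list and that with the smallest p, and genes the study names. The members, lists and named genes were chosen with earlier results of these data known. The swine number paired libraries because it marks the same animal. Deviations from group means correlated on average at 0.178 in 5 pairs of the same swine (-0.210 to 0.664) and at -0.0784 in 11 pairs of different swine.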

Additional observations from a re-analysis of the deposited data

Results flagged for a closer look

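Samples far from the others were looked for in groups of 4, and 19 of 126 groups of values held one, where chance gives about 1 in 20. The baseline library of swine 1644 was the distant sample in 12 of the 19. Its mean log2 CPM was 2.95 for the contractile apparatus (10.1 to 11.14 in the other baseline libraries), 2.91 for cardiac stress genes (6.62 to 7.28), 2.71 for ion channels and conduction (5.34 to 5.43), 2.09 for cardiomyocyte markers and 8.43 for adipocyte markers. It was at 3.96 for antigen presentation (4.16 to 4.18) and at 5.29 for glucocorticoid and clock genes (4.86 to 4.93). Among single genes, ASXL3 was at 2.36 in it, GPX3 at 7.63, CD248 at 6.73, KLF11 at 5.41 (4.45 to 4.46 in the others) and BHLHE41 at 4.25. CLEC5A was at -1.22 in the baseline library of swine 1640 and at -2.21 in the other 3.

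At day 2 the library of swine 1644 had a mean of 6.77 for glucose use (5.97 to 6.06 in the others), that of swine 5385 one of 2.88 for erythroid and platelet markers (1.53 to 1.73), and the first library of swine 1640 one of 2.96 for adipocyte markers (1.50 to 1.72). The second library of swine 1640 was far from the others with 3.63 for immediate early genes, with 4.82 for DBN1 (4.33 to 4.36) and with 4.22 for PDK4 (4.64 to 4.71). The part of these libraries in the comparisons was not tested beyond the values given with and without a library.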

How the results depend on the processing

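Beside the main setting, 27 settings were tried for day 2 against baseline. The number of called genes was 0 in all but 5, all of them DESeq2 fits chosen after the data were seen, with 7 in the 8 libraries of both groups, 11 in the 7 without that of swine 1644, and, with the swine as a replicate block, 1 in the 8, 33 in the 7 and 8 in the 20 libraries. Leaving out 1 library gave 0 to 0 genes, and up to 539 under an unadjusted 0.05, the most being without the first day 2 library of swine 1640. In edgeR the replicate block gave 0 calls again, with 385 genes under an unadjusted 0.05, and 639 in the 8 libraries alone. For day 14 against day 2, DESeq2 called 4 genes, 11 with the replicate block, which held the same 4, and 1 without the 2 libraries low in cardiomyocyte markers, while leaving out 1 library gave 0 to 0 genes, with 334 to 2883 under an unadjusted 0.05. The cause of these differences was not tested, apart from the libraries and tools that the settings themselves change.

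Of 1197 values of named genes outside the fits that left out 1 library, 51 changed sign. MYH6, with a difference of -0.01, was at 0.55 with the replicate block, 0.45 with counts summed per swine, 2.02 with limma-voom, 0.0207 with all sequenced libraries and 0.78 in the 8 libraries with the block. ARC was at 1.31 with the block, 0.39 with all sequenced libraries and 0.29 in the 8 libraries with the block, and MYC at 0.12 with the block. ENSSSCG00000014997 was at -0.21 with counts summed per swine. Limma-voom gave 0.12 for FN1 and 0.94 for NPPB. All sequenced libraries gave -1.18 for ENSSSCG00000014997, -4.90 for CSF3R, -0.36 for GP91-PHOX and -0.0877 for SGMS1. Without the 2 libraries low in cardiomyocyte markers, edgeR and DESeq2 gave 1.49 and 2.02 for ARC, 0.10 and 0.0995 for COL1A1, 0.31 and 0.312 for FAM111A, 0.95 and 0.949 for FN1, 0.0149 and 0.0121 for LPL, 0.42 and 0.45 for MYC, and 1.63 and 1.66 for UCP3. In the 7 libraries they gave 0.0941 and 0.0997 for COL1A1, 0.29 and 0.30 for FAM111A, 0.93 and 0.946 for FN1, and 0.422 and 0.418 for MYC, and DESeq2 0.0121 for LPL. DESeq2 with the block gave 2.54 for ARC, 0.15 for MYC and 0.53 for MYH6 in the 20 libraries, 0.52 for ARC, 0.76 for MYH6, 0.22 for NPPB and 1.31 for UCP3 in the 8, and 0.0805 for CIDEC, -0.11 for COX1, 0.23 for FAM111A, 0.67 for FN1 and 0.37 for MYC in the 7. Leaving out 1 library at a time gave -0.45 to 0.46 for MYH6, -2.10 to 1.52 for ARC, -1.54 to 0.12 for COL1A1, -0.22 to 0.47 for ENSSSCG00000014997, -0.44 to 0.32 for FAM111A, -1.24 to 0.98 for FN1, -1.59 to 0.024 for LPL, -0.44 to 0.44 for MYC, -5.39 to 3.07 for MYL4, -2.82 to 4.43 for NPPB and -5.12 to 1.64 for UCP3. Of 683 list medians, 88 moved by more than the SD of the list mean at day 2. With 4 libraries a group and 3 animals, differences near the median standard error of 0.52 were not detectable.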
